A study of Mus musculus with 8 samples.

Results

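The genes described here are 10 members of a group of imprinted growth regulators: *Meg3*, *Gm26906*, *Dlk1*, *H19*, *Igf2*, *Cdkn1c*, *Grb10*, *Peg3*, *Mest* and *Plagl1*. They were picked by gene symbol, or by the Ensembl identifier of that symbol, from the 43629 genes of the deposited count table, and all 10 were found there. *Gm26906* was included because it lies on the strand opposite *Meg3*. All 10 had at least 1 count, and 8 of them passed a filter on low counts. *Igf2* and *Dlk1* did not pass it.

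An imprinted gene is transcribed mainly from the copy inherited from 1 parent, and which copy is active is set by DNA methylation laid down in the germ line. Many imprinted genes act on growth. As a rule, the paternally expressed ones, such as *Igf2*, *Peg3*, *Mest*, *Dlk1* and *Plagl1*, favor growth, and the maternally expressed ones, such as *H19*, *Cdkn1c*, *Grb10* and *Meg3*, restrain it. Several of them are abundant in fetal tissues and fall after birth, and some have been tied to quiescence of tissue stem cells. The sequencing counted here did not separate the parental copies, so the values below are summed over both.

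The growth plate is the cartilage layer in which long bones lengthen. Its resting zone holds slowly cycling chondrocytes next to the secondary ossification center, and its proliferative zone holds columns of flattened, dividing chondrocytes. All mice were Axin2CreERT2;R26RTdTomato, in which tamoxifen turns on the red TdTomato protein in cells that express *Axin2* and in their descendants. Each received tamoxifen daily for 3 days from P23 to P25 and was euthanized at P30, with no group that went without tamoxifen among the libraries used here. Resting zone samples were TdTomato+ cells cut by laser from 8 µm sections, and proliferative zone samples were flattened cells without TdTomato at least 50 µm away from the ossification center. The labels name tibiae as the tissue, whereas the methods name tibia and femur. Cells that never expressed *Axin2* were not sampled from the resting zone, and the mark was given 5 to 7 days before the tissue was taken, so the resting zone libraries hold labeled cells and whatever the laser took along with them.

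There were 8 libraries from 4 mice, 1 of each zone per mouse. Mice 1 and 2 were male, and mice 6 and 13 were female. Resting libraries had 192882 to 462044 counts and proliferative libraries 249284 to 631474, after 2 rounds of linear amplification of the RNA. With so few counts, 3 counts corresponded to between 4.81 and 14.7 CPM (counts per 1e6 counts), depending on the library, and a level below that could not be told from 0. There were no molecular identifiers, so this limit and all intervals below cover counting error only. CPM here is relative to the library total scaled by its trimmed mean of M-values (TMM) factor.

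The strand on which the counts fell bears on every value below. The library kit keeps the strand of the RNA, and the setting for strand with which reads were counted is not given in the sources used here. The files themselves show that many reads were assigned to the strand opposite the transcribed gene. Of the protein-coding genes of mitochondrial DNA, *mt-Nd6* alone lies on the light strand, and its message is normally scarce beside those of the heavy strand. Here *mt-Nd6* held 69.4% to 82.9% of the counts of these genes in every library, and the other 12 together held the rest. Of the 100 genes with the highest mean CPM, 86 shared exon bases with a counted gene on the opposite strand, against 29.5% of all 17357 annotated genes with a count. *Tcfl5*, for example, had 64349 counts and the cartilage collagen gene *Col9a3* opposite it 1756. Among the cell type markers used here, 10 had such a gene with counts on either side, and in 4 of them the opposite-strand gene had more counts than the marker. The count of a gene that lies alone, such as *Grb10* or *Peg3*, may thus hold only the minor share of its reads, and that of a gene with an opposite-strand neighbor may hold reads of the neighbor. How closely such counts follow the amount of a gene's own RNA was not tested, and levels and differences are given as counted.

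The resting zone libraries also carried more RNA of other cell types. The 11 chondrocyte markers measured, none of them at 0, summed to 7411 to 19360 CPM per resting library and 34405 to 59210 CPM per proliferative library. The 10 markers of osteoblasts and osteocytes summed to 8632 to 36787 CPM and 620 to 3865 CPM, in the same order. The 14 markers of hematopoietic cells summed to 4520 to 10942 CPM and 308 to 1941 CPM, and the 9 of osteoclasts to 1718 to 4780 CPM and 16.0 to 462 CPM. The 10 markers of fibroblasts and perichondrium summed to 586 to 1192 CPM and 289 to 360 CPM, the 7 of marrow stroma to 127 to 415 CPM and 4.81 to 54.4 CPM, and the 10 of endothelium to 328 to 453 CPM and 170 to 237 CPM. In all 7 of these lists the zones did not overlap (two-sided exact permutation test, p = 0.0286, which is the lower limit for 4 against 4 libraries). This test permutes all 8 libraries and leaves out that they are paired by mouse, and a permutation within the 4 mice could not go below p = 0.125. The resting zone library of mouse 6 stood apart, with the highest chondrocyte sum of that zone (19360 CPM) and the lowest osteoblast sum (8632 CPM, against 22774 to 36787 CPM in the other 3), but also with the highest sum of fibroblast and perichondrium markers (1192 CPM). The 7 markers of hypertrophic chondrocytes, the enlarged cells below the proliferative zone, summed to 745 to 1999 CPM in resting and 1203 to 1858 CPM in proliferative libraries, with overlap (p = 0.771, same exact permutation test). Members of that list went both ways. *Panx3* (log2 difference -4.78) and *Col10a1* (-4.28), which mark cells entering hypertrophy, were called higher in the proliferative zone (edgeR, adjusted p = 5.01e-05 and 0.00139). So was *Ihh*, a signal made by prehypertrophic cells, with 0 counts in the resting zone and 15, 16, 6 and 2 in the proliferative zone of mice 1, 2, 6 and 13 (adjusted p = 0.000259 over all genes with a count). *Mmp13*, a collagenase that osteoblasts also make, was called higher in the resting zone (4.66, adjusted p = 0.00109). The 9 markers of skeletal muscle, with *Ckm*, *Myh1* and *Myh4* at 0, overlapped as well (38.0 to 177 CPM and 118 to 144 CPM; exact permutation test, p = 0.257). Single markers did not all follow their list. Most of the osteoblast sum was *Col1a1* and *Col1a2*, and *Sp7*, an osteoblast transcription factor that maturing chondrocytes also make, stood lower in resting than in proliferative libraries in all 4 mice (means of 15.03 and 38.5 CPM; edgeR, adjusted p = 0.0471, not called). The osteoblast product *Bglap* was higher in the resting zone (57.0 and 0.43 CPM; edgeR over all genes with a count, adjusted p = 8.34e-09). *Lum* of the fibroblast list (104.5 and 105.5 CPM), *Eng* of the endothelial list (86.5 and 92.1 CPM) and *Csf1r* of the hematopoietic list (369 and 305 CPM) overlapped between the zones. In bulk samples, fewer cells of a type and less RNA per cell cannot be told apart.

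Which of the genes differed between the zones was tested with edgeR's quasi-likelihood test. Zone was the only term of the fit, so the pairing of libraries by mouse was left out. A fit with the mouse as a block is given among the alternatives below. A gene was called when its Benjamini-Hochberg adjusted p was below 0.01 and its log2 difference was beyond 1 in either direction. Of the 8 members that passed the filter, 6 were called, against 18.0% of all 3793 genes tested. The members were chosen with earlier results of these data known, so this share is a description and no test of the group. *Meg3* and *Gm26906*, which share exon bases and are not independent, were higher in the resting zone, a direction in which 11.0% of all genes tested were called. *Cdkn1c*, *Grb10*, *Peg3* and *Plagl1* were higher in the proliferative zone, a direction in which 6.93% were called. *H19* and *Mest* were not called. *Igf2* and *Dlk1* were tested in a fit of all 17492 genes with a count, of which 4.74% were called higher in the resting and 2.68% in the proliferative zone, and neither was called. The median log2 difference of the 8 members (resting over proliferative zone) was -1.21, and that of all genes tested was 0.08. In each of the 6 called genes the zones did not overlap and all 4 mice went the same way, and 32.9% of all genes tested had zones without overlap. These values come from the same 8 libraries as the calls and are no separate support for them. The summed level of all 10 members did not separate the zones, at 2564 to 8597 CPM in resting and 2633 to 3165 CPM in proliferative libraries (two-sided exact permutation test, p = 0.657).

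**Figure D1:**
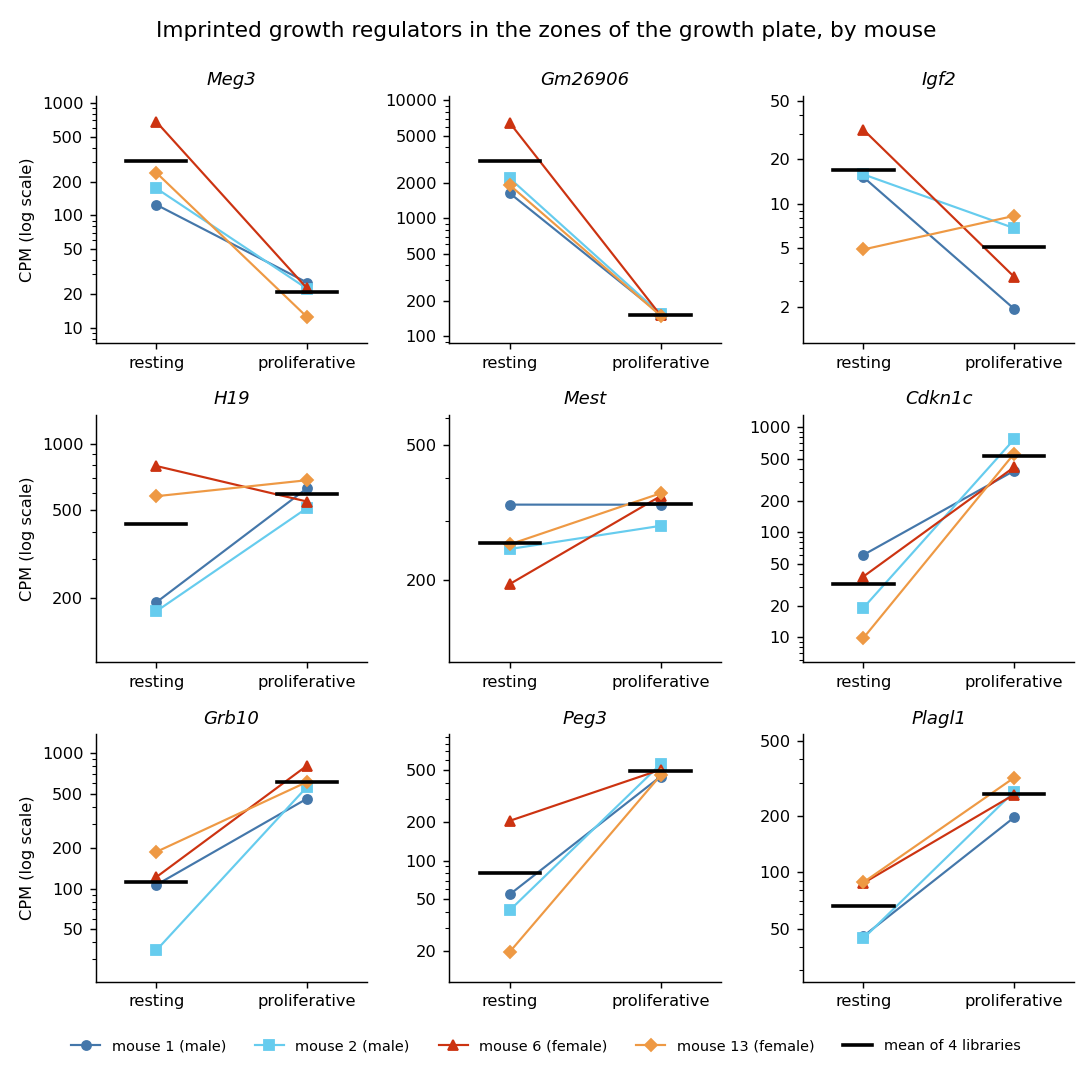
Level in CPM, on a log axis, of the 9 members with more than 1 count, with a line from the resting to the proliferative library of each mouse and a black bar at the mean of 4 libraries. *Meg3* and *Gm26906* fell from the resting to the proliferative zone in every mouse, *Cdkn1c*, *Grb10*, *Peg3* and *Plagl1* rose in every mouse, and the lines of *Igf2*, *H19* and *Mest* did not all run the same way.

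The called genes that were higher in the resting zone lie in the *Dlk1* and *Meg3* domain. *Meg3* is a long noncoding RNA that is expressed from the maternal copy and is known as a restrainer of cell growth. It lies on chromosome 12 (chr12:109541001-109571726, plus strand, build GRCm38), with 8 exon blocks and 18089 exon bases in the annotation used here. It had 41, 55, 344 and 49 counts in the resting zone libraries of mice 1, 2, 6 and 13, and 13, 13, 14 and 3 in their proliferative zone libraries. The lowest resting zone value, 125 CPM in mouse 1, was above the highest proliferative zone value, 25.2 CPM in the same mouse. Its mean was 306 ± 257 CPM in resting and 20.6 ± 5.60 CPM in proliferative libraries (SD, n = 4 each), a 14.9-fold difference of the means. The fitted log2 difference was 3.84 ± 0.54 (SE; edgeR, adjusted p = 0.000361). Much of the spread in the resting zone came from mouse 6, at 684 CPM, and with that library left out the mean fell to 180 ± 58.1 CPM (SD, n = 3), with a log2 difference of 3.02.

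*Gm26906* is annotated as a long noncoding RNA on the opposite strand (chr12:109568628-109571723, minus strand). All of its 1228 exon bases lie inside exons of *Meg3*, and its start site is 3 bases from the end of *Meg3*. It has 2 exons, and its intron of 1868 bases shares both edges with no intron of *Meg3*. Its first 60 bases are shown because they mirror the end of the longest *Meg3* transcript, and the capitals mark TTTATT, which on the *Meg3* strand reads AATAAA, the signal at which transcripts are cut and given a poly(A) tail.
*Gm26906*, chr12:109571664-109571723, minus strand: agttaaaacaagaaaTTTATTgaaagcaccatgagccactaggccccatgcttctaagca
This stretch, from GENCODE M21, is the reverse complement of a stretch of 1 of the 11 annotated *Meg3* transcripts.

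*Gm26906* had 537, 688, 3237 and 389 counts in the resting zone libraries of mice 1, 2, 6 and 13. It had 79, 90, 94 and 36 in their proliferative zone libraries. Scaled to library size, the proliferative zone values lay between 149 and 154 CPM in all 4 mice, and every resting zone value was at least 1631 CPM. The proliferative zone values rest on 36 to 94 counts, whose counting error alone is wider than their spread, so their closeness is not read as a trait. The mean was 3040 ± 2278 CPM in resting and 152 ± 2.27 CPM in proliferative libraries (SD, n = 4 each), a 20.0-fold difference of the means. The fitted log2 difference was 4.32 ± 0.44 (SE; edgeR, adjusted p = 8.74e-05). By mean CPM it was the 31st gene in the resting zone and the 862nd in the proliferative zone. Mouse 6, at 6440 CPM, was again the highest, and the remaining 3 resting libraries averaged 1907 ± 275 CPM (SD, n = 3), which gave a log2 difference of 3.63.

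Most of the counts at this locus were assigned to the opposite strand. *Gm26906* held 90.8% of the counts of the pair in resting libraries (4851 of 5340) and 87.4% in proliferative libraries (299 of 342). Library by library the share ran from 85.9% (95% Wilson interval 77.3% to 91.6%, proliferative zone of mouse 1) to 92.9% (90.5% to 94.7%, resting zone of mouse 1), so the zones overlapped in it. Per kilobase of exon, as counted, *Gm26906* had 143 times the counts of *Meg3*. Reads of *Meg3* and of *Gm26906* cannot be told apart where they overlap, and in view of the strand on which the mitochondrial counts fell, the counts listed for *Gm26906* may be *Meg3* reads from the 1228 shared exon bases. The ratio of 143 divides by the annotated exon lengths of both genes and would then not hold. In counts alone, the *Gm26906* entry had 9.68 times those of *Meg3*. *Xist*, the noncoding RNA of the inactive X chromosome in female cells, also overlaps a gene on the opposite strand, *Tsix*, and *Tsix* held 93.2% of the counts of that pair (male libraries had at most 15 of these counts each). When the counts of *Meg3* and *Gm26906* were added before the test, the log2 difference of the pair was 4.28 (edgeR, adjusted p = 8.65e-05).

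**Figure D2:**
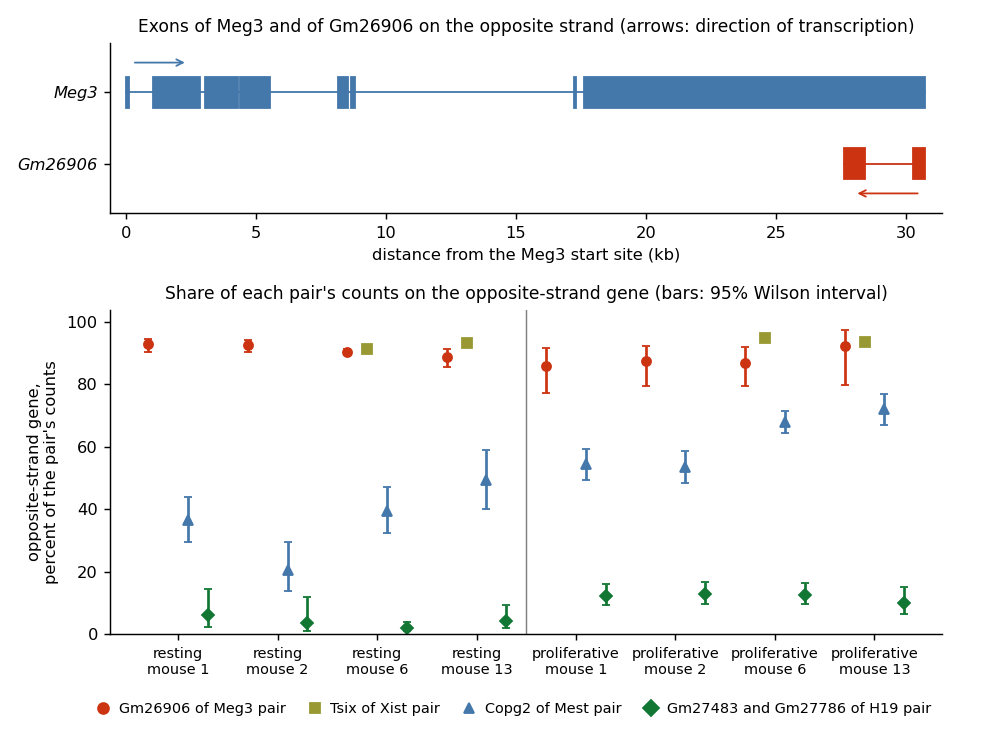
Upper part, exons of *Meg3* and *Gm26906* by distance in kilobases from the *Meg3* start site. Lower part, for each library, the percent of the counts of a pair of overlapping genes that fell on the opposite-strand gene, with 95% Wilson intervals and only where the pair had at least 30 counts: *Gm26906* held 85.9% to 92.9% of its pair in all 8 libraries, whereas *Copg2* held 20.4% to 49.5% of the *Mest* pair in resting and 53.4% to 72.3% in proliferative libraries.

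*Dlk1*, a paternally expressed membrane protein that restrains differentiation, is the protein-coding partner of *Meg3* in this domain. It had 1 count in all 8 libraries, in the resting zone of mouse 6. Every other library had 0, which allows up to 3 counts, so no fold is given. The noncoding RNAs *Rian* and *Mirg*, which follow *Meg3* on the same strand and were looked at after their values were seen, had 35 and 17 counts in all and did not pass the filter. *Rian* stood at 13.8 ± 16.0 CPM in resting and 6.96 ± 5.17 CPM in proliferative libraries (SD, n = 4 each). *Mirg* stood at 8.25 ± 4.66 CPM and 2.03 ± 3.03 CPM. Over all 17492 genes with a count, their log2 differences were 0.98 and 1.51, neither of them called (edgeR, adjusted p = 0.500 and 0.457).

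*H19* and *Igf2* are neighbors on chromosome 7 that share enhancers, with *H19* made from the maternal copy and *Igf2* from the paternal one. *H19* is a noncoding RNA and the host of the microRNA gene *Mir675*, which had 0 counts in all libraries. *H19* (chr7:142575529-142578143, minus strand) had 63, 55, 399 and 118 counts in the resting zone of mice 1, 2, 6 and 13. In the proliferative zone it had 324, 299, 342 and 165. In CPM, both male mice were low in the resting zone (191 and 174 CPM), both female mice were higher there (794 and 579 CPM), and the proliferative zone values lay between 512 and 684 CPM in all 4, so the zones overlapped. The mean was 435 ± 304 CPM in resting and 593 ± 78.01 CPM in proliferative libraries (SD, n = 4 each). The log2 difference was -0.44 ± 0.42 (SE; edgeR, adjusted p = 0.466). Within mice 1, 2, 6 and 13 it was -1.71, -1.55, 0.53 and -0.24.

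In the resting zone both male values of *H19* lay below both female values, with 2 mice of each sex, and in the proliferative zone the sexes overlapped (629 and 512 CPM in male, 548 and 684 CPM in female mice). The chondrocyte markers of the resting libraries were split the same way, with sums of 7676 and 7411 CPM in male and 19360 and 10212 CPM in female mice. So were those of skeletal muscle (54.7 and 38.0 CPM against 177 and 93.2 CPM). Sums of hematopoietic cells (9879 and 10942 CPM against 6721 and 4520 CPM), marrow stroma and endothelium were higher in both males. The other lists overlapped between the sexes. The part of any of these lists in the levels of *H19* was not tested. In a fit with zone, sex and their interaction, its zone difference was 1.80 log2 units higher in female than in male mice (edgeR, adjusted p = 0.492), which did not pass the threshold of 0.05. In the 2 male mice alone the log2 difference was -1.69 (adjusted p = 0.0164) and in the 2 female mice 0.18 (adjusted p = 0.795). Over all genes tested, 1 passed this interaction test, 0.0264%, and none of the 8 members did. *H19* and *Meg3*, whose zone difference was 1.98 log2 units higher in female mice (edgeR, adjusted p = 0.724), were the members with an unadjusted p under 0.05, which 250 of all 3793 genes had.

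A pair of short noncoding RNA genes, *Gm27483* and *Gm27786*, lie wholly within *H19* exons on the opposite strand and are printed because they took part of the counts at this locus.
*Gm27483*, chr7:142576853-142576923, plus strand: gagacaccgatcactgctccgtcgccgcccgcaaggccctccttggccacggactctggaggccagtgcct
*Gm27786*, chr7:142577849-142577918, plus strand: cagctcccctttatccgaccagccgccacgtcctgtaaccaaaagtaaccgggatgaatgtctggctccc
Each, as given by GENCODE M21, is the reverse complement of a stretch of 3 of the 7 annotated *H19* transcripts. *Gm27786* had 0, 1, 6 and 2 counts in the resting zone of mice 1, 2, 6 and 13 and 28, 29, 44 and 11 in the proliferative zone. The zones did not overlap, and its log2 difference was -3.05 ± 0.60 (SE; edgeR, adjusted p = 0.00223), so it was called although *H19* was not. Of all 3793 genes tested, 6.93% were called in that direction. Without the resting library of mouse 6 the log2 difference was -3.84, and in male or female mice alone the gene was not called (edgeR, adjusted p = 0.0156 and 0.0572). *Gm27483*, with 10 resting and 44 proliferative counts in all, was not called (log2 difference -1.78, adjusted p = 0.132 over all genes with a count). Together they held 2.91% of the counts of the locus in resting libraries (19 of 654) and 12.1% in proliferative libraries (156 of 1286). With their counts added to those of *H19*, the summed level was 449 ± 309 CPM in resting and 672 ± 79.2 CPM in proliferative libraries (SD, n = 4 each; two-sided exact permutation test, p = 0.314).

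*Igf2* encodes insulin-like growth factor 2, a main driver of fetal growth (chr7:142650766-142666816, minus strand). It was close to the limit of detection, with 5, 5, 16 and 1 counts in the resting zone of mice 1, 2, 6 and 13 and 1, 4, 2 and 2 in the proliferative zone. Only the resting zone library of mouse 6 reached 31.8 CPM, and the zones overlapped. The mean was 16.9 ± 11.1 CPM in resting and 5.07 ± 2.99 CPM in proliferative libraries (SD, n = 4 each). The log2 difference over all genes with a count was 1.65 ± 0.89 (SE; edgeR, adjusted p = 0.255), and without that library it was 1.02. *Igf2os*, on the opposite strand, had 0 counts. *Igf2r*, which clears the protein from the cell surface, stood at 110 ± 24.4 CPM in resting and 114 ± 25.6 CPM in proliferative libraries (SD, n = 4 each) and is named here although it was chosen after its values were seen. Of 10 RNA-binding proteins known to bind *Igf2* or *H19* RNA, 5 were tested, with a median log2 difference of 0.33. None of the 5 was called by edgeR or by DESeq2. In each, 2 of the 5 had an unadjusted p under 0.05, as had 1530 (edgeR) and 1524 (DESeq2) of all 3793 genes tested. The lowest adjusted p was that of *Khsrp*, a decay factor that binds *H19*, at 0.0808 with a log2 difference of 0.67, and that of *Elavl1*, a stabilizing factor, was 0.0896 with a log2 difference of -0.83.

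*Cdkn1c* encodes p57, an inhibitor of cyclin-dependent kinases that stops the cell cycle and is needed for chondrocytes to mature. It lies farther along chromosome 7 (chr7:143458339-143461050, minus strand), in a domain governed by the noncoding RNA *Kcnq1ot1*. It had 20, 6, 19 and 2 counts in the resting zone of mice 1, 2, 6 and 13. In the proliferative zone it had 198, 448, 260 and 135. The zones were far apart, with at most 60.8 CPM in any resting and at least 384 CPM in any proliferative library. The mean was 31.8 ± 22.5 CPM against 532 ± 174 CPM (SD, n = 4 each), a 16.7-fold difference. The log2 difference was -3.98 ± 0.43 (SE; edgeR, adjusted p = 0.00012), the most negative among the members. *Kcnq1ot1* stood at 148 ± 54.4 CPM in resting and 267 ± 31.8 CPM in proliferative libraries (SD, n = 4 each), without overlap. Its log2 difference of -0.83 (adjusted p = 0.0476) did not pass the thresholds. *Gm44732*, annotated on the strand opposite *Cdkn1c* with 625 shared exon bases, was not analysed here.

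*Grb10* encodes an adaptor protein that binds the insulin and IGF1 receptors and damps their signal (chr11:11930508-12038683, minus strand). It had 35, 11, 61 and 38 counts in the resting zone of mice 1, 2, 6 and 13 and 238, 330, 506 and 148 in the proliferative zone. The highest resting zone value, 186 CPM in mouse 13, was below the lowest proliferative zone value, 462 CPM in mouse 1. The mean was 112 ± 62.2 CPM against 613 ± 146 CPM (SD, n = 4 each), a 5.46-fold difference, and the log2 difference was -2.47 ± 0.39 (SE; edgeR, adjusted p = 0.000674).

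*Peg3* encodes a zinc finger protein expressed from the paternal copy, with roles in cell survival and in maternal and fetal growth (chr7:6703892-6730431, minus strand). It had 18, 13, 102 and 4 counts in the resting zone of mice 1, 2, 6 and 13 and 230, 325, 315 and 110 in the proliferative zone. Proliferative zone values lay close together, from 447 to 556 CPM. In the resting zone mouse 6 reached 203 CPM, and the other 3 libraries lay between 19.6 and 54.7 CPM. The mean was 79.6 ± 83.5 CPM against 491 ± 50.5 CPM (SD, n = 4 each), a 6.17-fold difference. The log2 difference was -2.53 ± 0.51 (SE; edgeR, adjusted p = 0.00262), and it was -3.63 when that library of mouse 6 was left out. The neighboring imprinted gene *Zim1* had 1 resting and 16 proliferative counts in all and was not called (edgeR, adjusted p = 0.130 over all genes with a count).

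*Plagl1* encodes a zinc finger protein that can arrest the cell cycle and is known to regulate other imprinted genes (chr10:13060504-13131694, plus strand). It had 15, 14, 44 and 18 counts in the resting zone of mice 1, 2, 6 and 13 and 101, 157, 162 and 77 in the proliferative zone. In the resting zone the male mice stood at 44.4 and 45.6 CPM and the female mice at 87.5 and 88.3 CPM, all below the lowest proliferative zone value of 196 CPM. These resting zone values rest on 14 to 44 counts, whose counting error is wider than the gap within either pair. The mean was 66.5 ± 24.8 CPM against 261 ± 50.6 CPM (SD, n = 4 each), a 3.93-fold difference. Its log2 difference, -1.97 ± 0.32 (SE; edgeR, adjusted p = 0.000726), was the smallest of the 4 genes higher in the proliferative zone. The interaction with sex was not called (0.65 log2 units, adjusted p = 0.878). *Gm27741*, a short noncoding RNA gene that shares 38 exon bases with it on the opposite strand, had no count in the resting zone and 5, 8, 3 and 0 in the proliferative zone of mice 1, 2, 6 and 13, and was not called (edgeR, adjusted p = 0.0371 over all genes with a count). The neighboring gene *Sf3b5*, a splicing factor subunit, had 18 resting and 37 proliferative counts in all and was not called (adjusted p = 0.535).

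*Mest* encodes an enzyme of the hydrolase family made from the paternal copy (chr6:30723547-30748465, plus strand). It had 110, 78, 98 and 52 counts in the resting zone of mice 1, 2, 6 and 13 and 172, 169, 221 and 87 in the proliferative zone. It varied less among the resting zone libraries than the other members, with a coefficient of variation of 22.3%, against 37.3% to 105% in the other 8 with more than 1 count. Its mean was 258 ± 57.4 CPM against 335 ± 32.2 CPM (SD, n = 4 each), the zones overlapped, and the log2 difference was -0.38 ± 0.24 (SE; edgeR, adjusted p = 0.262).

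*Copg2*, a coat protein of transport vesicles, runs toward *Mest* on the opposite strand and shares 912 exon bases with it. *Copg2* had 63, 20, 64 and 51 counts in the resting zone of mice 1, 2, 6 and 13 and 205, 194, 469 and 227 in the proliferative zone. It was called higher in the proliferative zone, with a log2 difference of -1.95 ± 0.43 (SE; edgeR, adjusted p = 0.00439). The adjusted p rose to 0.0104 when the resting library of mouse 1 was left out, and to 0.0103 or 0.0121 when the proliferative library of mouse 6 or of mouse 13 was, so that the call was lost each time. When *Mest* and *Copg2* were added, the pair was called (log2 difference -1.18, adjusted p = 0.00904), and its share of counts on *Copg2* was 36.9% in resting and 62.8% in proliferative libraries. How many of these counts were reads of *Mest* was not tested.

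**Figure D3:**
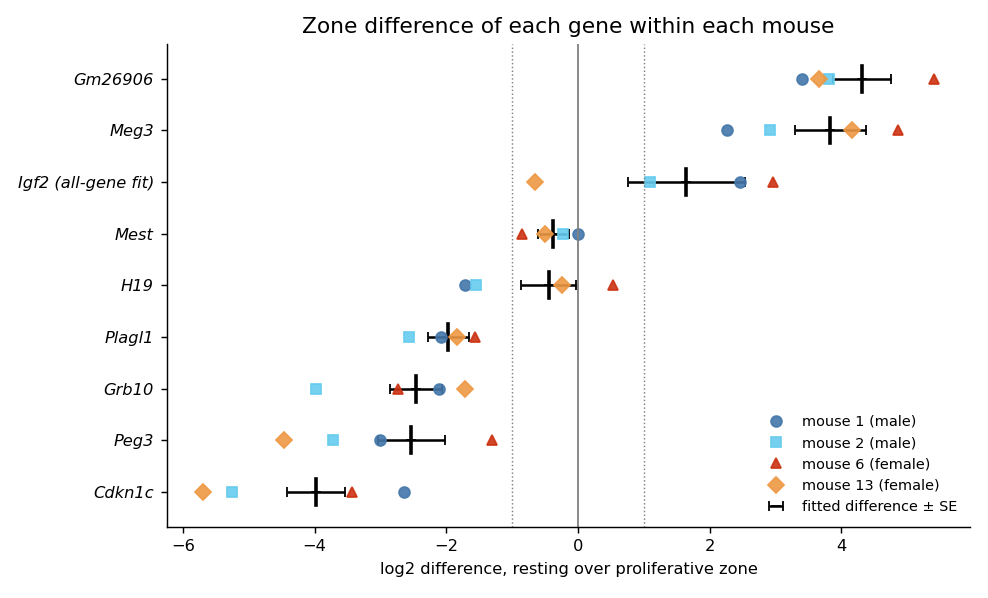
Log2 difference of CPM, resting over proliferative zone, within each of the 4 mice (colored points) beside the fitted difference with its standard error (black), with dotted lines at the thresholds of -1 and 1. All 4 mice lay beyond 1 for *Gm26906* and *Meg3* and beyond -1 for *Cdkn1c*, *Peg3*, *Grb10* and *Plagl1*, and *H19* ran from -1.71 in mouse 1 to 0.53 in mouse 6.

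Per kilobase of annotated exon and as counted, *Gm26906* stood at 2476 ± 1855 CPM per kb in resting and 124 ± 1.85 in proliferative libraries, and *Meg3* at 16.9 ± 14.2 and 1.14 ± 0.31. *H19* stood at 177 ± 123 and 241 ± 31.7 CPM per kb, and *Cdkn1c* at 15.6 ± 11.0 and 261 ± 85.5 (SD, n = 4 for all). No order of levels between genes is drawn from these values, because the share of a gene's reads that was counted may differ from gene to gene. Per kilobase, *Gm27483* and *Gm27786* had 0.522 times the counts of *H19* in resting and 2.41 times in proliferative libraries, and *Copg2*, which shares 912 of its 5121 exon bases with *Mest*, had 0.451 and 1.30 times the counts of *Mest*.

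RefSeq gave promoter windows (250 bases before to 50 after a start, build GRCm38.p6) for 7 of the 10 members, with 14 windows in all. *H19*, *Cdkn1c* and *Gm26906* had none in that table. *Meg3* and *Peg3*, which differed between the zones in opposite directions, were the members with the cAMP response element TGACGTCA, which reads the same on both strands and is held by 1.79% of all 32851 windows. The 250 bases before each start are shown with that motif in capitals, and in *Meg3* also with the TATA box TATAAA, which 13.6% of windows hold on either strand.
*Meg3*, chr12:109540746-109540995, plus strand: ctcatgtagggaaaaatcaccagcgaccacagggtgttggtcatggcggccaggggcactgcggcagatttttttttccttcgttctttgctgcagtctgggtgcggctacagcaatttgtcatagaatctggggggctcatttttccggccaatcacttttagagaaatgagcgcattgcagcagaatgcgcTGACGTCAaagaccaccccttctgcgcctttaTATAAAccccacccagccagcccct
*Peg3*, chr7:6730420-6730669, minus strand: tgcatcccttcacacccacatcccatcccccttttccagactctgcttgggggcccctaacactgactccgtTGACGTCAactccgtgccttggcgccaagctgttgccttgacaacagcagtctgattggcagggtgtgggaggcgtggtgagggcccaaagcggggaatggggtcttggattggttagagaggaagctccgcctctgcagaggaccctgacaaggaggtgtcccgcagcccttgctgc
The motif ended 49 bases before the start in *Meg3* and 170 bases before it in *Peg3*. *Plagl1* was the member with an E-box CACGTG, which is also the same on both strands and is held by 7.15% of windows. The YY1 motif GCCATNTT, searched on both strands and held by 6.05% of windows, was in none of the 14. *Grb10* had the richest window in CpG, with 45 sites in 300 bases, more than 98.1% of all windows, and is shown for that.
*Grb10*, chr11:12037421-12037670, minus strand: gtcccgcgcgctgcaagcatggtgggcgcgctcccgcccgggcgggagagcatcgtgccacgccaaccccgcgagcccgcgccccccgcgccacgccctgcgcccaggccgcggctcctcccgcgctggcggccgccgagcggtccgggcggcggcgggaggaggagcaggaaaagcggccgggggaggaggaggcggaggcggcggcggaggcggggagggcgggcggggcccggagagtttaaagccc
*Plagl1* had 26 CpG sites in its window, and *Meg3* and *Peg3* had 13 each in theirs (the first of 2 for *Meg3*), against a median of 7 over all windows. These matches are a description of the letters in the windows, and binding or methylation was not measured.

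Few other imprinted genes had enough counts for the test. Of 27 other genes in the same domains as the members, 23 were in the table and 4 were tested, with *Copg2* called higher in the proliferative zone and *Kcnq1ot1*, *Cd81* and *Phactr2* not called. Their median log2 difference was -0.40. Of 36 imprinted genes in other domains, 8 were tested and 1 was called higher in the proliferative zone, with a median of -0.41. Over all genes tested, 6.93% were called in that direction. The called gene was *Slc38a4*, an amino acid transporter, with 2, 0, 1 and 0 counts in the resting zone of mice 1, 2, 6 and 13 and 15, 20, 25 and 14 in the proliferative zone (edgeR, adjusted p = 0.00100). It did not pass the low-count filter when the proliferative library of mouse 2 or of mouse 6 was left out. *Gnas*, the alpha subunit of the stimulatory G protein, had a log2 difference of -0.81 (adjusted p = 0.0355) and *Ndn*, a protein that restrains the cell cycle, one of -1.51 (adjusted p = 0.0439), and neither was called among the 8. In the fit of all genes with a count, 28 of the 36 had a value and 3 were called higher in the proliferative zone, *Slc38a4*, *Gnas* and *Magel2*. Of all 17492 genes in that fit, 2.68% were called in that direction. *Airn* and *Inpp5f* had log2 differences of -0.63 and 0.35 and were not called in either fit.

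**Figure D4:**
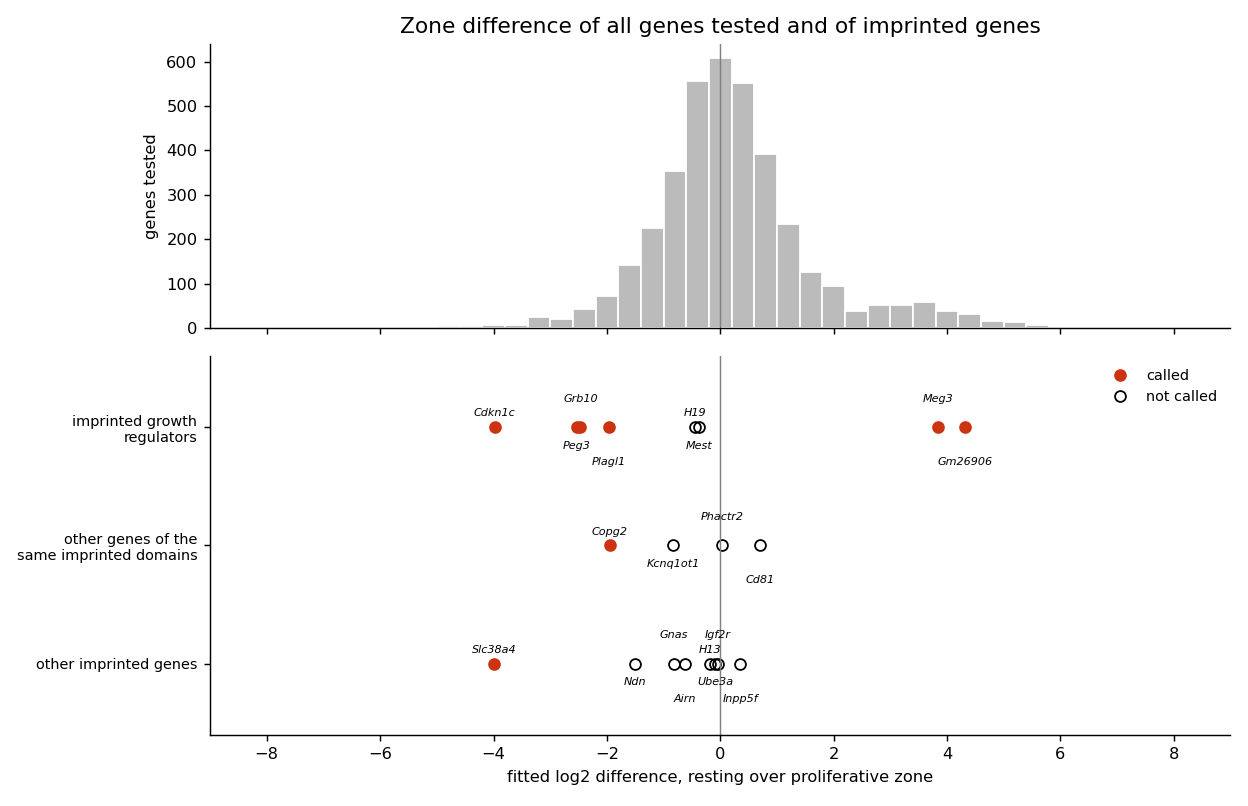
Upper part, number of genes by fitted log2 difference (resting over proliferative zone) for all 3793 genes tested. Lower part, the same difference for the 8 members, 4 other genes of their domains and 8 imprinted genes elsewhere that passed the low-count filter, filled where called: 6 of 8, 1 of 4 and 1 of 8. The genes were chosen with earlier results of these data known, and these shares were not compared by a test.

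Genes that work with the members were also counted. Of 14 genes reported to be co-regulated with imprinted genes, 9 were tested and 3 were called higher in the resting zone, as were 11.0% of all genes tested, with a median log2 difference of 0.33 over the 9. In the fit of all genes with a count, all 14 had a value, with a median of -0.06 (0.16 over all genes), and *Dhcr7*, an enzyme of cholesterol synthesis (5, 0, 1 and 0 counts in resting and 9, 5, 40 and 15 in proliferative libraries of mice 1, 2, 6 and 13; adjusted p = 0.000778), and *Gnas* were called higher in the proliferative zone beside the same 3. The 3 were the extracellular matrix genes *Dcn* (log2 difference 3.04, adjusted p = 8.78e-05), *Col3a1* (4.50, adjusted p = 0.000434) and *Col1a1* (4.25, adjusted p = 0.00149), each of which is also among the markers of fibroblasts or osteoblasts used here. *Col6a1* and *Gnas*, of the same list, were not called among the 9. Among 21 cell cycle and growth signaling partners of *Cdkn1c* and *Grb10*, 12 were tested, with a median of 0.60. *Rb1*, the retinoblastoma protein that holds back entry into S phase (log2 difference 2.21, adjusted p = 0.00284), and *Ccnd2*, cyclin D2 (2.17, adjusted p = 0.00340), were higher in the resting zone, and 2 of 12 is near the 11.0% of all genes tested. None of the 12 was called the other way by edgeR's quasi-likelihood test. In that test 6 of the 12 had an unadjusted p under 0.05 in either direction, as had 1530 of all 3793 genes tested. The other way, 1 was called by DESeq2, 1 by the likelihood ratio test and 1 when the resting library of mouse 6 was left out. Over all genes with a count 1 was, *Irs1*, and 2.68% of all genes were called in that direction there. Both calls depended on single libraries: that of *Rb1* was lost when the proliferative library of mouse 2, 6 or 13 was left out (adjusted p from 0.0135 to 0.0171), and that of *Ccnd2* when the resting library of mouse 13 or any proliferative library was (adjusted p from 0.0102 to 0.0162) and with the mouse as a block (adjusted p = 0.0103). *Irs1*, the insulin receptor substrate downstream of the receptors that *Grb10* binds, had a log2 difference of -1.60 and an adjusted p of 0.0267, and *Ccnd3* (1.75) and *Pcna* (1.17) had adjusted p-values of 0.0304 and 0.0376. Of 15 genes that lay down, keep or remove the DNA methylation of imprints or bind at them, 6 were tested (median 0.29) and 1 was called, *Uhrf1*, which brings the maintenance methyltransferase to replicated DNA (log2 difference 1.62, adjusted p = 0.00747), a call that was lost in 7 of the 8 fits that left out 1 library, all but the one without the resting library of mouse 13 (adjusted p from 0.0130 to 0.0360), and 1 of 6 is again near the 11.0% of all genes tested. The transcripts of *Ctcf*, which binds the control region between *H19* and *Igf2*, *Trim28*, *Dnmt3a* and *Tet2* were not called.

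The correlations between members over the 8 libraries are given as a description. Pearson's r of log2(CPM + 1) was 0.98 between *Meg3* and *Gm26906*, 0.95 between *Grb10* and *Plagl1* and 0.93 between *Cdkn1c* and *Peg3*. It was -0.90 between *Cdkn1c* and *Gm26906*. *H19* had r of -0.20 to *Meg3* and -0.30 to *Gm26906*. Its r was 0.38 to *Cdkn1c*, 0.55 to *Peg3*, 0.68 to *Grb10*, 0.71 to *Plagl1* and -0.06 to *Mest*. The genes tested with the pattern most like that of *Gm26906* over the 8 libraries were *Fn1*, *Clu* and *Efemp1* (r = 0.98 each), and those most like *Meg3* were *Igsf10*, *Aste1* and *Cst3* (r = 0.97 each). *Cdkn1c* was closest to *Rpn2*, *Ldlrad3* and *Serpinh1* (r from 0.98 to 0.99). *Grb10* was closest to *Sdc4*, *Aph1b* and *Epyc* (r from 0.98 to 0.99), and *Peg3* to *Map1a*, *Spcs1* and *Colgalt2* (r from 0.98 to 0.99). For *Plagl1* they were *Vimp*, *Tcfl5* and *RP24-439O10.3* (r from 0.98 to 0.99), where *Tcfl5* had a mean of 2686 CPM in resting and 31838 CPM in proliferative libraries and lies opposite *Col9a3*. *H19* was most like *Map7d1*, *Bcl7a* and *Sacm1l* (r from 0.96 to 0.98), and *Mest* most like *Rpsa*, *Utp11l* and *Rps3a1* (r from 0.92 to 0.93). These points share zone and mouse, and no test was made of them.

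The marker sums given above moved with both sets of genes. *Meg3* and *Gm26906* were higher in the zone where the markers of osteoblasts, hematopoietic cells, osteoclasts, fibroblasts and perichondrium, marrow stroma and endothelium were higher. *Cdkn1c*, *Grb10*, *Peg3* and *Plagl1* were higher in the zone where the chondrocyte markers and, of the hypertrophic ones, *Panx3*, *Col10a1* and *Ihh* were. Within the resting zone, *Gm26906* and *Meg3* were highest in the library of mouse 6, which had the lowest sums of osteoblast, marrow stroma (127 CPM) and endothelium markers (328 CPM) and the highest sums of chondrocyte, hypertrophic, muscle (177 CPM) and fibroblast and perichondrium markers. Among the other 3 resting zone libraries, chondrocyte sums were 7411 to 10212 CPM, and all 6 genes were still called without mouse 6 altogether, with log2 differences of 3.04 for *Meg3*, 3.61 for *Gm26906* and -3.63 for *Peg3*. The part of these other cell types in the differences of the members was not tested.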

How the data were processed

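RNA of laser-microdissected resting and proliferative zone cells was sequenced in 8 libraries, grouped by the zone in their labels. Reads had been trimmed by the authors (BBDuk), mapped to GRCm38 (HISAT2 2.1.0) and counted per Ensembl gene with HTSeq 0.11.2, and the deposited table holds these whole-number counts without normalization. The strand setting of the counting is not given in the sources used here. It was checked on the shares of mitochondrial genes of either strand and on overlapping genes. A second deposited table with the authors' own comparison (log2 fold change, mean log2 CPM, likelihood ratio, p-value, false discovery rate and normalized values per library) was used only to pair identifiers with gene names. Exons, overlaps and transcript sequences came from GENCODE M21, which is later than the authors' annotation, and promoters from RefSeq.

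Counts were tested with edgeR 4.0.16 (R 4.3.3; glmQLFit, zone as the only term, TMM factors from the genes that passed filterByExpr) over 3793 genes with Benjamini-Hochberg adjustment. A gene was called at an adjusted p below 0.01 and a log2 difference beyond 1 or -1. Members that did not pass the filter were tested in a fit of all 17492 genes with at least 1 count. Interactions with sex were called at an adjusted p below 0.05. On simulated counts with known changes this test recovered 69 of 88 genes changed 2 log2 units and 81 of 83 changed 3, with 0 false calls. Changes were given to 200 genes before the low-count filter, and the 88 and 83 are those that passed it. The simulated libraries were independent, without pairing by mouse, other cell types or reads on the opposite strand. These rates need not hold for the data here. Single values were compared with two-sided exact permutation tests in scipy 1.17.1. Replicates are separate mice. Libraries with the same number came from 1 mouse, by the labels, and their deviations from the zone means correlated at 0.165, 0.0136, 0.137 and 0.0577 in mice 1, 2, 6 and 13 (-0.0539 to -0.00533 with the libraries of other mice), so the mouse as a block was an alternative fit. The others were DESeq2 1.42.0, edgeR's likelihood ratio test, other size factors and filters, each library left out, each sex alone, and counts summed over overlapping genes.

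The genes named are all members, the genes whose exons overlap them on the opposite strand, counted neighbors, up to 5 tested genes of lowest adjusted p in each pathway list, and the 3 tested genes most correlated with each member. The members and lists were chosen with earlier results of these data known. Positions are on GRCm38, counted from 1.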

Additional observations from a re-analysis of the deposited data

Results flagged for a closer look

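The *Gm26906* level in the resting zone library of mouse 6, 6440 CPM, stood apart from the other 3 resting zone libraries, of which the highest had 2181 CPM: the gap was 0.886 of the range of the 4 values, above the 95% limit for 4 samples. Of 18 groups of 4 libraries (9 members in each zone) this was the only one that stood out, and chance alone does so in about 1 of 20. The same library had the highest resting zone value in 5 of the 9 members. No zone difference of a member was called as different between male and female mice.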

How the results depend on the processing

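Of the 6 called members, all kept their direction in every alternative run, and all were called with each library left out, with DESeq2, with the likelihood ratio test, with other size factors and with the mouse as a block, where *Meg3* had a log2 difference of 3.57 and *Peg3* one of -2.94. The block changed no call of a member and gave 385 and 230 genes called, against 419 higher in the resting and 263 higher in the proliferative zone. Fits on 2 mice of 1 sex lost calls: in male mice 1 member was called higher in the resting and 2 in the proliferative zone (41 and 62 genes), and in female mice 2 and 2 (184 and 47 genes). The cause was not tested. There *Meg3* (adjusted p = 0.0139), *Grb10* (0.0127) and *Plagl1* (0.0121) were not called in males, nor *Peg3* (0.0853) and *Plagl1* (0.0194) in females, and the log2 difference of *H19* changed sign to 0.18 in females. With at least 10 counts in every library, 1 and 2 members were called of those left, because *Meg3*, *Cdkn1c* and *Peg3* then had no test (125 and 137 genes called). Summed with the opposite-strand gene, 1 and 5 were, since *Meg3* and *Gm26906* then form 1 pair and *Mest* was called. Over all genes with a count 829 and 468 genes were called, and 42 for the interaction with sex against 1. At an adjusted p below 0.05, 635 and 427 were. Leaving out 1 library gave 255 to 472 genes called higher in the resting and 183 to 349 in the proliferative zone, the lowest without the proliferative library of mouse 2 (255 and 183). TMM factors from all genes, an alternative added after seeing the data like the one without mouse 6, gave 321 and 353, with the median log2 difference of all genes tested moved from 0.08 to -0.15, and the members' calls did not change. *Dlk1*, with 1 count, could not be compared at this depth.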

Other observations

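Some imprinted genes and partners of them were too scarce for the low-count filter and were seen in the libraries of 1 zone alone. Those with more than 1 count are named after their values were seen. *Magel2*, a regulator of protein ubiquitination in the cell, had 0 counts in all 4 resting libraries, whereas the proliferative libraries of mice 1, 2, 6 and 13 had 4, 2, 13 and 3 (edgeR over all genes with a count, adjusted p = 0.00981). It was called, as were 2.68% of all 17492 genes of that fit in that direction. *Peg10*, a gene derived from a retrotransposon, had 0 in the resting zone and 4, 0, 8 and 2 (adjusted p = 0.0459), and *Zfp57*, a zinc finger protein that guards imprints in early embryos, had 0 and 3, 0, 7 and 4 (adjusted p = 0.0377), neither of them called. Their 0 counts allow up to 3 counts per library. *Lin28a*, an RNA-binding protein, was seen in the resting zone alone, with 9, 0, 2 and 0 counts (adjusted p = 0.0417, not called), and so were *Rtl1* (6 counts) and *Calcr* (3 counts), both only in mouse 6, and *Mkrn3* (2 counts). *Ampd3*, an enzyme of purine metabolism, was also seen mostly in the resting zone, with 5, 8, 4 and 0 counts in the resting zone and 1, 0, 0 and 0 in the proliferative zone, and was not called (adjusted p = 0.0432).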
